A study of Mus musculus with 102 samples.

Results

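The genes described here are 40 immediate early and activity-induced genes, chosen by a fixed list of symbols and looked up in the brain table of an ageing series, with spleen as the contrast tissue. The list was chosen with earlier results of these data known. All 40 symbols had a row, of 51810 rows in the table. Immediate early genes are transcribed within minutes of a stimulus from factors that are already present in the cell. In neurons, calcium entering through synaptic receptors and voltage-gated channels activates kinases that phosphorylate CREB and the partners of serum response factor at the promoters of these genes. Their products are inducible transcription factors such as Fos and Egr1, feedback inhibitors such as the dual-specificity phosphatases, and proteins that act at synapses such as Arc, so their transcripts are widely read as a trace of recent neuronal activity. In lymphoid tissue the same genes respond to antigen receptors, cytokines and tissue handling.

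Brain and spleen were sequenced from male wild-type C57BL/6J (BL6J) mice of 3, 5, 8, 14, 20 and 26 months. The labels name 45 animals, each giving both tissues. A further 12 male BL6J mice gave spleen only, 3 for each combination of WT or mTOR genotype with young (5 months) or old (21 or 23 months) age. The labels name the mTOR genotype without describing the allele, name no brain region, and record no treatment for any of these animals. Titles of the ageing samples also carry an ET code that varies within and between ages. Its meaning is not given, and it was not used in any test. Each library is listed as a sample of its own, and the p-values measure the spread between these samples.

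Normalized read counts, that is reads of a gene divided by 1 scaling factor per library, are given throughout as levels, and differences are on the log2(normalized count + 1) scale. Libraries held 4072076 to 13655235 reads in brain, 3031246 to 11702988 in ageing spleen and 7733716 to 14112504 in the mTOR table. In brain, replicates 1 and 6 at 5 months agreed within counting noise, as did replicates 4 and 7 at 8 months. The labels name different animals within each pair, and no pair of ageing spleen libraries agreed this closely. Which animal each of these brain libraries came from is therefore uncertain. Each of these brain pairs was averaged and counted as 1 sample. That leaves 7, 8, 7, 9, 7 and 5 brain samples at 3, 5, 8, 14, 20 and 26 months. A gene is called where the limma p, adjusted by Benjamini-Hochberg over all tested genes of that comparison, is under 0.05. In brain 38 of the 40 members passed the filter on low values (10 or more in at least 5 libraries) among 15546 genes. The basic leucine zipper protein gene Maff, at 5.17 at 3 months, and the activin subunit gene Inhba, at 1.45, did not.

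In brain, 6 members passed the test at 26 months, and the promoters of 4 of them were in the RefSeq table for build GRCm38.p6, which held 32 of the 40 members. They are shown so that the elements through which stimulus-driven factors are known to act can be looked for, and the values that follow refer to these genes. Each run is the 250 bases upstream of the start of transcription, read 5′ to 3′ in the direction of the gene, from Fos at chr12:85473640-85473889 on the plus strand, Btg2 at chr1:134079156-134079405 on the minus strand, Arl4d at chr11:101665291-101665540 on the plus strand and Junb at chr8:84978749-84978998 on the minus strand. Capitals mark exact matches to TGACGTCA, the cyclic AMP response element bound by CREB, to its core TGACG, which also lies inside the longer motif, and to GCGNGGGCG, the element of the EGR factors, all searched on both strands.
Fos: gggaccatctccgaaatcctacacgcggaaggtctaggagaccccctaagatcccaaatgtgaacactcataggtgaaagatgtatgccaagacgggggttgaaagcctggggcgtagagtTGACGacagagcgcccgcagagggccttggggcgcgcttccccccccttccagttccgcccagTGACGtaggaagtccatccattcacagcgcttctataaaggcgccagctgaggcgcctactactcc
Btg2: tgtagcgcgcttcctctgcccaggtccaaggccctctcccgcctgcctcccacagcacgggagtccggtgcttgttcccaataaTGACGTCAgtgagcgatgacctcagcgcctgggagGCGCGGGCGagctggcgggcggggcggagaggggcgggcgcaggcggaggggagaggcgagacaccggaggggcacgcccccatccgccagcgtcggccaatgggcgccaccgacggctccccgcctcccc
Arl4d: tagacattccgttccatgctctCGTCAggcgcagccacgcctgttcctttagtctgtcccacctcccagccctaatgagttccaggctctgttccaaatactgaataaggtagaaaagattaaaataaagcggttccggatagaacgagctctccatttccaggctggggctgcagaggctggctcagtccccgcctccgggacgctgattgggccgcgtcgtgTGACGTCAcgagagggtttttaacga
Junb: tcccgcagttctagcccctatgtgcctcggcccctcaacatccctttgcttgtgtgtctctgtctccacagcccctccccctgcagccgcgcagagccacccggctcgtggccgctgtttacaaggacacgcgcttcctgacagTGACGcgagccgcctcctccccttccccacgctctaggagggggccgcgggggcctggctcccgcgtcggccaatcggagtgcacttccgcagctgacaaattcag
Btg2 and Arl4d held the whole element, Btg2 also an EGR match, and Fos and Junb held the core alone. Over the 32 member promoters, TGACGTCA was present in 4 (Arl4d, Btg2, Dusp1 and Plk2), against 1.62% of all 27025 promoters in the table. TGACG was in 19 of 32 (59.4%), against 17.9%, and GCGNGGGCG in 9 of 32 (28.1%), against 4.65%. TGANTCA, the AP-1 element, was in 0 of 32, against 6.87%, and the CArG box of serum response factor was in 1 (Dusp5), against 1.40%. These are matches of letters in a short window and not measured binding, and elements outside that window were not searched for. Arc and Ier2, the other two that passed, were not in the promoter table.

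Fos, Btg2 and Arl4d were lower in brain after 3 months. With the 5 later ages averaged, 3 of 38 tested members were lower than at 3 months and 0 were higher. Only 4 of the 15546 tested genes (0.0257%) were called lower in that comparison. At an unadjusted p under 0.05, 22 members were lower, where 2.5% of all genes were. In all, 34 of 38 members lay below 0, against 51.7% of all tested genes. The median log2 change was -0.25 for the members and -0.00453 over all tested genes. A highest mean at 3 months was found for 27 of 38 members, against 18.7% of all tested genes, and a lowest mean at 26 months for 21, against 22.7%. The mean log2 value over the 38 members was 8.02 ± 0.11 (SD, n = 7) at 3 months and 7.70 ± 0.16 (SD, n = 8) at 5 months, and then 7.77, 7.75, 7.70 and 7.56 at 8, 14, 20 and 26 months. The 3-month samples ran from 7.87 to 8.15. The highest samples at 5, 8, 14, 20 and 26 months stood at 7.90, 8.02, 8.11, 8.19 and 8.02, so every later age overlapped the 3-month range. At 20 and 26 months these were single animals, and the lowest stood at 7.34 and 7.33. The members and the contrast of all later ages were chosen with earlier results of these data known. The shares of members set against all genes are therefore descriptions and not an independent test. All later-age comparisons share the 3-month samples, and in bulk tissue fewer cells of a type and less RNA per cell cannot be told apart.

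**Figure D1:**
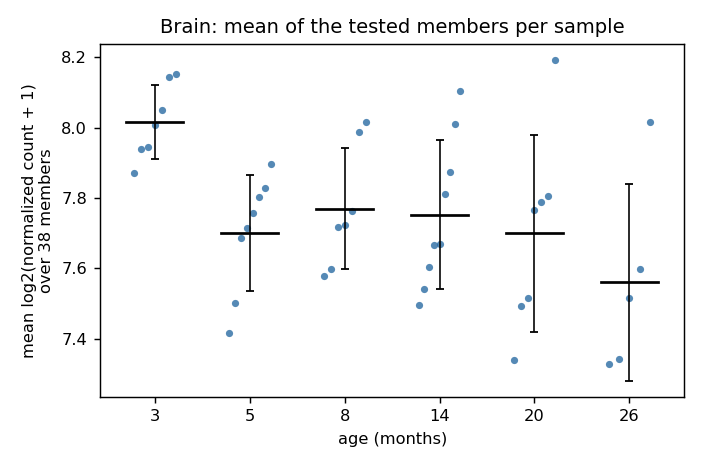
Mean log2(normalized count + 1) over the 38 tested members in each of the 43 brain samples, by age in months; bars are group means and error bars SD. The 3-month samples lie between 7.87 and 8.15, and the later ages have lower means with a wider spread, up to 8.19 in 1 sample at 20 months.

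For the later-age comparison each 3-month and each 26-month sample was left out in turn, and no sample of the ages between. The number of members called lower was 0 when replicate 1 or 6 at 3 months, or replicate 3 or 5 at 26 months, was left out, 1 without replicate 3 or 4 at 3 months or replicate 4 at 26 months, and 5 without replicate 5 at 3 months. It was also 0 with no filter on low values, 0 without the libraries under 5000000 reads, 1 with library medians set equal, 1 without the near-identical libraries, and 5 in DESeq2. Across the alternatives that kept all replicates, 34 or 35 of the members lay below 0 and the median ran from -0.29 to -0.25.

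The AP-1 subunits, which pair through leucine zippers to form a stimulus-driven transcription factor, included 2 of the genes that fell. Fos, whose product pairs with Jun proteins, lies at chr12:85473890-85477273 (GENCODE M21, GRCm38, plus strand). Its lowest, median and highest 3-month samples were 647, 939.7 and 1252. At 5 months they were 309, 581 and 690.5, at 8 months 444, 543 and 949.9, at 14 months 437, 658 and 1059 and at 20 months 329, 428 and 1074. The 26-month samples were 253, 410.0, 451, 521 and 754. The highest of the 5 lay above the lowest 3-month sample, and 25 of the 36 later samples lay below every 3-month sample. Fos at 26 months was 49.98% of its 3-month mean (log2 change -1.05, SE 0.24, limma adjusted p = 0.0156), and over all later ages 59.3% (log2 change -0.80, SE 0.17, limma adjusted p = 0.0392). Junb encodes a subunit that can restrain Jun. Its 3-month samples had a lowest, median and highest value of 158, 197 and 344. At 5 months they were 95.3, 128 and 232, at 8 months 108, 127 and 180.3, at 14 months 117, 151 and 197 and at 20 months 100.4, 149 and 258. The 26-month samples were 74.99, 79.6, 113, 126 and 200.05, so that 1 of 5 was within the 3-month range. Junb fell at 26 months (log2 change -0.94, SE 0.21, limma adjusted p = 0.0166), and over all later ages its change was -0.66 (limma adjusted p = 0.084).

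The other tested AP-1 members did not pass in brain. Fosb, whose splice form ΔFosB accumulates with repeated stimulation, differed by -0.45 (limma adjusted p = 0.153) over all later ages, and Fosl2 by -0.17 (limma adjusted p = 0.831). Jun, the main partner of Fos, stood at 388 at 3 months and 374 at 26 months, with a later-age difference of 0.01 (limma adjusted p = 0.998). Atf3, a factor induced by cell stress and injury, had the highest later-age difference of all members, 0.35 (limma adjusted p = 0.86), but at a low level of 5.38 ± 3.40 (SD, n = 7) at 3 months and 9.46 ± 2.49 (SD, n = 7) at 20 months. Fos and Fosb had means below their 3-month level at each later age, and Jun and Atf3 did not.

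Among the 12 other inducible transcription factors, 0 were called, and 6 were lower at an unadjusted p under 0.05 for the later ages and 6 at 26 months. Egr2, a zinc finger factor of the EGR family, had the lowest later-age difference of all members, -0.97 (limma adjusted p = 0.134). Its 3-month samples had a lowest, median and highest value of 51.7, 149 and 255, and those at 26 months were 32.2, 42.7, 47.7, 67.0 and 115. The 3-month group alone spanned a wide range, and the 2 groups overlapped. Egr1, the most abundant member per kilobase, was 3632 ± 904 (SD, n = 7) at 3 months, 2571 ± 373 (SD, n = 8) at 5 months and 2341 ± 819.9 (SD, n = 5) at 26 months, a later-age difference of -0.48 (limma adjusted p = 0.153). Npas4, a factor induced in neurons by calcium entry, was 107 ± 36.9 (SD, n = 7) at 3 months and 57.9 ± 29.6 (SD, n = 5) at 26 months, with 35 of 36 later samples below the 3-month median and a difference of -0.76 (limma adjusted p = 0.209). Egr1 and Npas4 were singled out after their values were seen. Egr4 differed by -0.45 (limma adjusted p = 0.318) and Egr3 by -0.25 (limma adjusted p = 0.83).

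The orphan nuclear receptors of the NR4A family had unequal values. Nr4a1 differed by -0.55 (limma adjusted p = 0.336) and Nr4a2 by -0.24 (limma adjusted p = 0.332), while Nr4a3, with 0.04 (limma adjusted p = 0.972), was among the 4 highest differences. The 5 samples of Nr4a2 at 26 months all lay below all 7 at 3 months. Among the Krüppel-like factors, Klf4, a factor of vascular and myeloid cells, had a difference of 0.22 (limma adjusted p = 0.855), Klf10 -0.23 (limma adjusted p = 0.733), Klf2 -0.13 (limma adjusted p = 0.939) and Klf6 -0.10 (limma adjusted p = 0.877). Of these 7 genes, 0 passed the test, and whether the family members differ from each other was not tested.

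The early regulators and feedback inhibitors held 3 of the 6 genes that fell at 26 months, and all 16 lay below 0 in both comparisons. Btg2, an antiproliferative gene that recruits the mRNA deadenylase, had 3-month samples with a lowest, median and highest value of 208, 271.3 and 460.2. At 5 months they were 131, 189 and 314, at 8 months 143, 169 and 226, at 14 months 159, 213 and 269.9 and at 20 months 123, 192 and 324. Its 26-month samples were 115, 147, 149, 151 and 189, every one below every 3-month sample. Btg2 fell at 26 months (log2 change -0.93, SE 0.20, limma adjusted p = 0.00746) and over all later ages (log2 change -0.65, SE 0.14, limma adjusted p = 0.042). Its 26-month call held in each of the 12 fits that left out 1 sample of either group. Arl4d, which encodes an ARF-like small GTP-binding protein, had 3-month samples of 103, 151 and 212. At 5 months they were 66.5, 122 and 167, at 8 months 91.7, 107 and 139, at 14 months 75.3, 95.7 and 113 and at 20 months 69.5, 96.3 and 121. At 26 months they were 68.6, 72.4, 75.6, 82.8 and 133. In this gene 1 of the 26-month samples reached the 3-month range. Arl4d fell at 26 months (log2 change -0.78, SE 0.18, limma adjusted p = 0.0151) and over all later ages (log2 change -0.57, SE 0.12, limma adjusted p = 0.0441).

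Ier2, a nuclear protein of the immediate early response family, had 3-month samples of 73.8, 92.2 and 175 (lowest, median and highest). At 5 months they were 32.9, 76.4 and 95.2, at 8 months 41.4, 69.1 and 92.1, at 14 months 34.6, 55.5 and 109 and at 20 months 40.3, 71.6 and 128. At 26 months they were 36.0, 43.9, 45.8, 48.2 and 83.2, with 1 value inside the 3-month range. Ier2 fell at 26 months (log2 change -1.08, SE 0.26, limma adjusted p = 0.0275), and its later-age difference was -0.76 (limma adjusted p = 0.114). The phosphatases that switch off MAP kinases had values below 0 that did not pass the test. Dusp1 differed at 26 months by -0.84 (limma adjusted p = 0.0698), with no overlap between the 5 and the 7 samples, Dusp5 by -0.47 (limma adjusted p = 0.316) and Dusp6, which is selective for ERK, by -0.36 (limma adjusted p = 0.345). Ier5 also had no overlap at 26 months, with -0.40 (limma adjusted p = 0.198). Btg2, Dusp1, Ier5 and Nr4a2 are 4 of the 36 genes (0.232% of those tested) in which every 26-month sample was below every 3-month sample.

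Of the remaining regulators, Gadd45b and Gadd45g, which act in the response to DNA damage and stress, differed over the later ages by -0.35 (limma adjusted p = 0.418) and -0.31 (limma adjusted p = 0.765). The pseudokinase Trib1 differed by -0.32 (limma adjusted p = 0.473), and Rgs2, an inhibitor of G protein signalling, by -0.20 (limma adjusted p = 0.492). Sik1, Ier3, Plk2, Plk3 and Tiparp had differences between -0.15 and -0.08. Plk2, a kinase that acts in the homeostatic weakening of synapses, stood at 1539.9 ± 135 (SD, n = 7) at 3 months and 1370.2 ± 36.7 (SD, n = 5) at 26 months, and 3 of 36 later samples lay below the 3-month range.

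Among synaptic and secreted effectors, Arc had the largest called decrease of any member in brain. Arc encodes a protein that controls the uptake of AMPA receptors at active synapses, and lies at chr15:74669083-74672570 on the minus strand. Its 3-month samples were 380.4, 772 and 973 (lowest, median and highest). At 5 months they were 269.2, 358 and 769, at 8 months 301, 509 and 658, at 14 months 295, 398 and 858 and at 20 months 269.6, 448 and 1013. At 26 months they were 172, 216, 256, 339.8 and 611. Of these 5, 4 were below every 3-month sample. The 26-month mean was 43.6% of that at 3 months (log2 change -1.29, SE 0.28, limma adjusted p = 0.00947), while over all later ages the difference was -0.78 (limma adjusted p = 0.13). The neurotrophin gene Bdnf, the pentraxin gene Nptx2, whose product clusters AMPA receptors, and the scaffold gene Homer1 differed over the later ages by -0.16 (limma adjusted p = 0.84), -0.24 (limma adjusted p = 0.634) and -0.26 (limma adjusted p = 0.495). These gene-level values do not separate the activity-induced short form of Homer1 or the alternative first exons of Bdnf from their other transcripts.

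**Figure D2:**
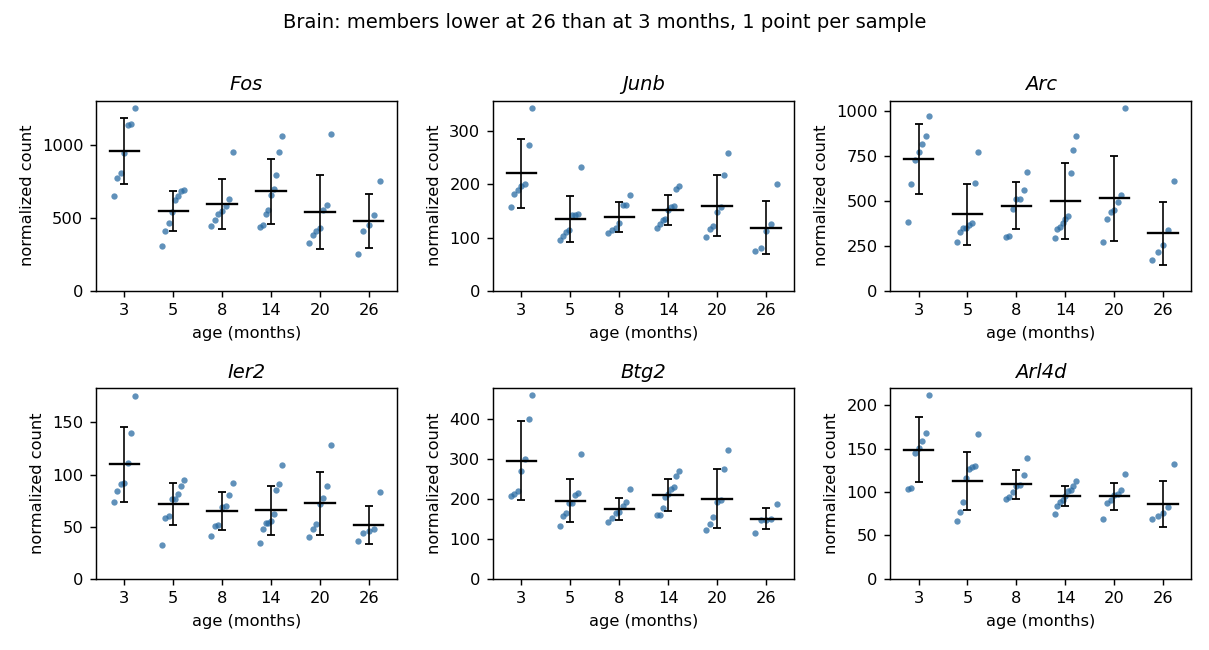
Normalized counts by age in months in brain for the 6 members called lower at 26 than at 3 months, 1 point per sample, with group mean and SD; the axes start at 0. In Btg2 every 26-month sample (114.9 to 189) lies below every 3-month sample, and in the other 5 genes 1 sample at 26 months reaches the 3-month range.

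Age by age, the 6 genes called at 26 months (Arc, Arl4d, Btg2, Fos, Ier2 and Junb) were among 14 called lower of all tested genes (0.0901%). At 26 months, 21 members were lower at an unadjusted p under 0.05, where 4.16% of genes were. Of 38 members, 36 lay below 0, against 51.0% of all tested genes, with a median of -0.34. At 5, 8 and 14 months 0 members and 0 genes in all (0%) were called lower by limma, and 0 members by edgeR and by DESeq2. At an unadjusted p under 0.05 the members lower were 16 at 5 months (1.51% of genes), 11 at 8 months (1.51%) and 19 at 14 months (1.87%). The medians were -0.24, -0.17 and -0.24. At 20 months limma called 0 members, where 0.0129% of genes were called lower, edgeR called 1 (Rgs2) and DESeq2 3 (Arl4d, Nptx2 and Rgs2), and 21 were lower at an unadjusted p under 0.05 (3.95% of genes).

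The count of 6 at 26 months was 3 without replicate 3 of that age, 2 without replicate 5 and 10 without replicate 1. Fos lost its call without replicate 5 (limma adjusted p = 0.123), Arc without replicate 3 (limma adjusted p = 0.0667), Junb and Arl4d each in 3 of 12 such fits and Ier2 in 6 of 12. Markers of cortical and hippocampal glutamatergic neurons had 0 of 10 genes called at 26 months, with 10 of 10 below 0 and a median of -0.31, and their summed level ran from 29579.8 to 51917 at 3 months and from 26436 to 34013 at 26 months. For the later ages together their median was -0.14. In that list 0 markers were at 0, and its part in the members' result was not tested.

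**Figure D3:**
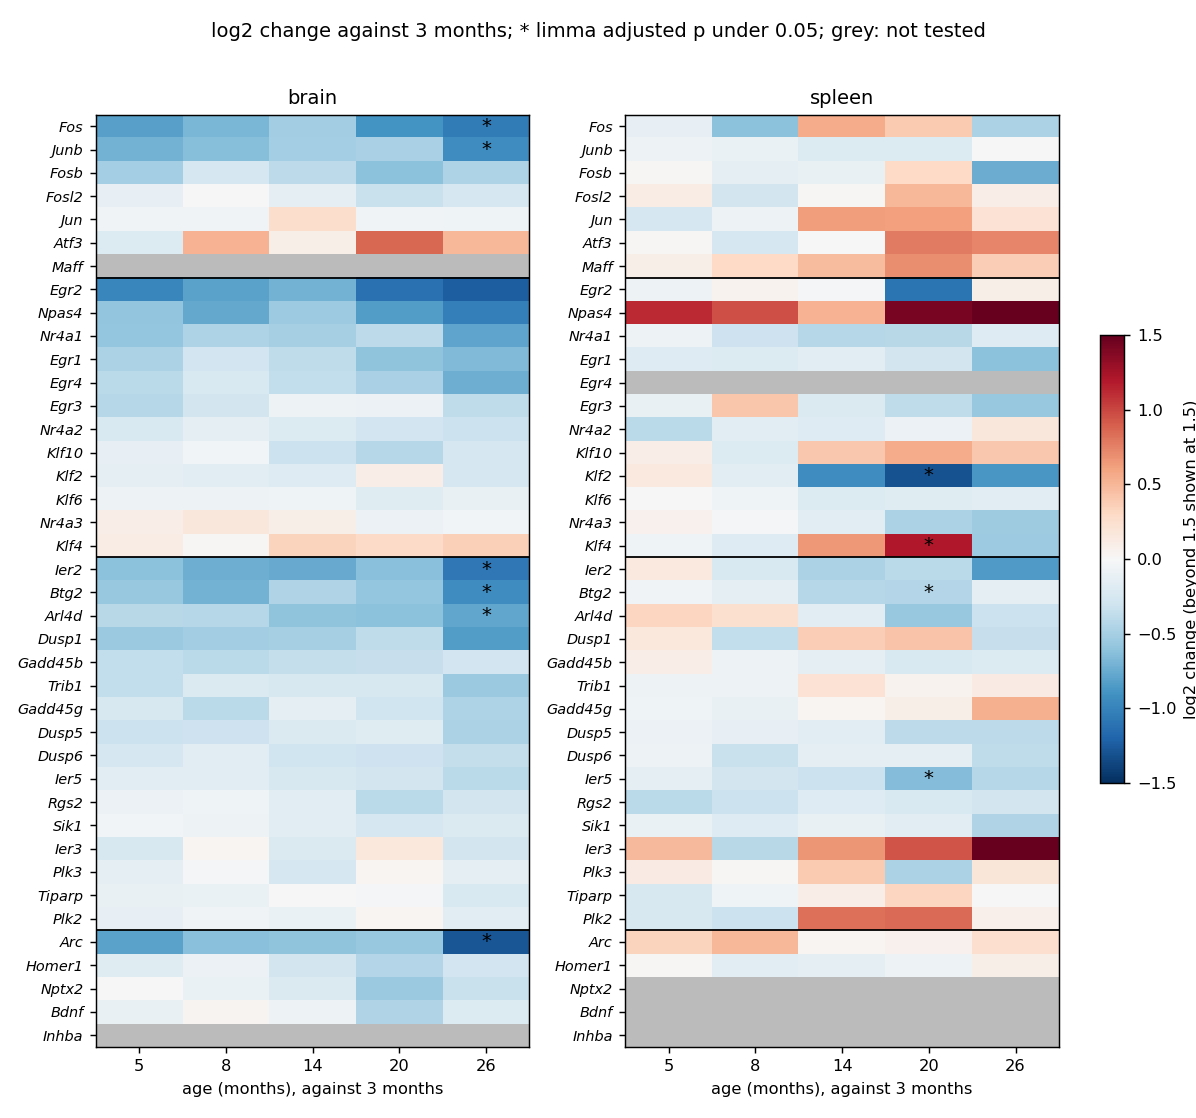
Log2 change of each member against 3 months at the 5 later ages in brain (left) and spleen (right), grouped by role from AP-1 subunits at the top to synaptic effectors at the bottom; stars mark limma adjusted p under 0.05 and grey cells were not tested. The brain panel is blue in most rows from 5 months on with 6 stars, all at 26 months, and the spleen panel has 4 stars, all at 20 months.

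From 5 to 26 months 32 of 38 members had a slope below 0, against 50.8% of all tested genes. The slope test called 0 of 38 members lower, against 0.0515% of genes, and 5 were lower at an unadjusted p under 0.05 (3.59% of genes). edgeR and DESeq2 also called 0. Over the 21 months between these ages Fos had a fitted difference of -0.29 (95% interval -0.69 to 0.11, limma adjusted p = 0.695) in log2 units and Arc one of -0.39 (95% interval -0.86 to 0.08, limma adjusted p = 0.645). The lowest unadjusted p belonged to Rgs2, at -0.29 (95% interval -0.47 to -0.11, limma adjusted p = 0.131), and Nptx2, at -0.42 (95% interval -0.68 to -0.16, limma adjusted p = 0.131). Nptx2, Bdnf, Rgs2 and Homer1 had their lowest mean at 20 months and not at 26. Nptx2 was 507 ± 75.8 (SD, n = 7) at 3 months, 521 ± 155 (SD, n = 8) at 5, 345 ± 58.8 (SD, n = 7) at 20 and 407 ± 89.4 (SD, n = 5) at 26 months. Nptx2 and Rgs2 were 2 of 16 genes (0.103%) in which every 20-month sample was below every 3-month sample, and neither was called by limma (adjusted p = 0.0738 and 0.0518). The test for any difference among the 6 ages called 0 members and 0.482% of genes, with 19 members at an unadjusted p under 0.05 (6.02% of genes). There edgeR called 2 (Arl4d and Btg2) and DESeq2 6, and limma called 4 without replicate 1 at 26 months.

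The members varied together from animal to animal within an age. With age means removed, the median Pearson r over the 703 pairs of members was 0.32 across 43 samples, and 28.6% of pairs exceeded 0.5. Over all pairs of the 10766 genes with a mean of at least 50, the median was -0.0020 and 5.43% exceeded 0.5. These are descriptions over samples that share a library for both genes of a pair, and the member mean had r = -0.19 with log2 read depth. Arc and Nr4a1 had the highest pair value (0.90), and Egr1 with Dusp6 (0.87), Fos with Dusp1 (0.85) and Ier2 with Dusp1 (0.84) were also high. Dusp6 followed the mean of the other members most closely (0.89), then Egr2 (0.87) and Fos (0.85).

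Other members stood apart from this block. Npas4 and Egr3 had r = 0.75 with each other but 0.18 each with the mean of the other members, and Egr3 had r = -0.68 with Klf6. Nptx2, Bdnf and Rgs2 formed a further group, with 0.82 between Nptx2 and Bdnf and 0.76 between Nptx2 and Rgs2. Atf3, Klf6, Ier3, Plk3 and Plk2 had values between -0.01 and 0.10 with the other members. These groupings were read from the data and were not tested. The median within-age SD of the members was 0.33 in log2 units, against 0.26 over all tested genes and 0.21 over those with a mean of at least 50. It was highest for Atf3 (0.67), at a mean of only 6.53, and then for Egr2 (0.67), Npas4 (0.56) and Arc (0.53).

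**Figure D4:**
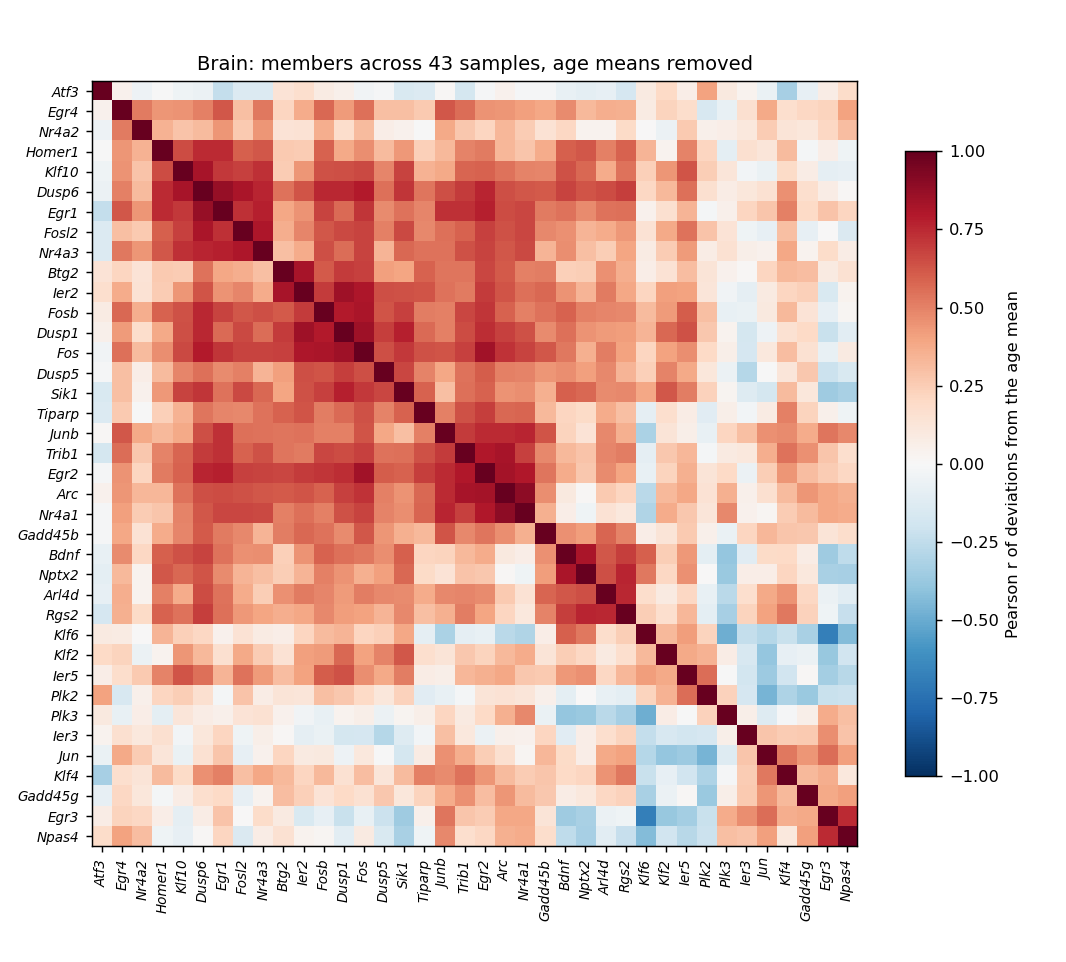
Pearson r between the 38 tested members across 43 brain samples after the mean of each age was removed, with genes ordered by similarity; red is positive and blue negative. A block that holds Dusp6, Egr1, Fos, Dusp1, Egr2, Arc and Nr4a1 is positive throughout (for example 0.90 for Arc and Nr4a1), and Egr3 with Npas4 (0.75) lies outside it.

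Other genes with a mean of at least 50 were ranked by likeness to the member mean across these 43 samples, with age means removed. Predicted genes and genes with Rik clone names were left out, which left 10236. The closest of these were Mcl1 (0.64), Sox8 (0.64), Otud1 (0.62), Cebpg (0.61), Ccn1 (0.59), Mfsd14a (0.59), Pdp1, Spry4, Spty2d1, Ccdc117, Efnb1 and Rab4a (0.53). Of these 12 genes 0 were called in either comparison. The gene 1700016P03Rik, described below, was left out by its name. Its r of 0.76 was above that of all 12, and it was called lower in both comparisons. Ccn1, a matricellular protein gene induced by growth factors, came nearest over the later ages, at -0.79 (limma adjusted p = 0.154).

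Genes that act upstream of the members had medians near 0. Of 41 tested genes of signalling from synapse to promoter, which include NMDA receptor subunits, calcium channels, CaM kinases, ERK kinases and CREB with its coactivators, 0 were called for the later ages or at 26 months, and the medians were 0.01 and 0.03. Rps6ka1, an ERK-activated kinase, was 0.26 (limma adjusted p = 0.616) and the calcium channel gene Cacna1c 0.14 (limma adjusted p = 0.683) over the later ages. Of 24 other activity-induced genes 0 were called, with medians of -0.06 and -0.09, and their mean had r = 0.71 with the member mean within age. Vgf, a secreted neuropeptide precursor, was -0.34 (limma adjusted p = 0.271) at 26 months, and Ifrd1 -0.16 (limma adjusted p = 0.778) over the later ages. Of 12 glucocorticoid-induced genes and 11 clock genes 0 were called in either comparison, with medians between -0.05 and 0.04. Hif3a was 0.49 (limma adjusted p = 0.495), Cdkn1a -0.26 (limma adjusted p = 0.673), Clock 0.14 (limma adjusted p = 0.713) and Arntl -0.09 (limma adjusted p = 0.844) over the later ages. In the first list Srf is listed at 0 in all libraries, and among the other activity-induced genes so are Csrnp1 and Amigo3. Whether these genes were not expressed or not counted cannot be told from the values.

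Among markers of brain cell types, pan-neuronal genes had a median of -0.09 over the later ages and -0.18 at 26 months, with 9 of 10 below 0 in both, and Rbfox3 was -0.19 (limma adjusted p = 0.356) at 26 months. The pan-neuronal marker Nefl is also listed at 0, with the same limit. Striatal markers had 9 of 9 below 0 at 26 months with a median of -0.28. C1qa and C1qb, complement genes of microglia, rose at 26 months, by 0.87 (limma adjusted p = 0.0182) and 0.71 (limma adjusted p = 0.0137), and the Purkinje cell gene Car8 fell, with a log2 change of -0.56 (limma adjusted p = 0.0284). Astrocyte, oligodendrocyte, endothelial, choroid plexus, GABAergic and blood cell lists had 0 genes called in either comparison. Their part in the members' result was not tested. Within an age, r with the member mean was 0.05 for pan-neuronal markers and 0.18 for the cortical glutamatergic ones. Over all lists of brain markers it ran from -0.20 for endothelial cells and pericytes to 0.32 for cerebellum, with 0.25 for oligodendrocytes.

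The fourth gene called lower over all later ages, beside Fos, Btg2 and Arl4d, was 1700016P03Rik, singled out after its values were seen. It lies at chr11:75172560-75177633 on the plus strand, and GENCODE M21 places Mir132 and Mir212 inside it, at chr11:75173682-75173747 and chr11:75173388-75173478. As background, miR-132 is known as a CREB-driven, activity-induced miRNA in neurons. The level of the host transcript 1700016P03Rik was 128 ± 49.2 (SD, n = 7) at 3 months, 67.5 ± 19.9 (SD, n = 8) at 5, 66.2 ± 12.6 (SD, n = 7) at 8, 72.3 ± 22.3 (SD, n = 9) at 14, 66.1 ± 24.5 (SD, n = 7) at 20 and 53.2 ± 32.0 (SD, n = 5) at 26 months. This transcript fell over the later ages (log2 change -0.97, SE 0.19, limma adjusted p = 0.0193) and at 26 months (log2 change -1.38, SE 0.27, limma adjusted p = 0.00269). Within an age 1700016P03Rik had r = 0.76 with the member mean. The mature miRNAs were not measured in these libraries.

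The order of levels among the members was another in spleen, led by Klf2 and Btg2. Per kilobase of exon and within its own table, the highest 3-month levels in brain were those of Egr1 (809.9), Fos (407), Homer1 (378), Plk2 (343) and Dusp6 (283). In spleen they were those of Klf2 (629), Btg2 (416), Ier2 (396), Klf6 (367) and Dusp6 (305). The 2 tables were normalized separately, so the order within a tissue is given and not a ratio between tissues. Egr4, Nptx2, Bdnf and Inhba did not pass the filter in spleen. Arc, at 731 ± 194 (SD, n = 7) in brain, was 6.18 ± 3.15 (SD, n = 7) in spleen at 3 months. Npas4 was 2.84 ± 3.04 (SD, n = 7) there.

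In ageing spleen 36 members were tested among 16243 genes, with counts of calls near the share of all genes. Against all later ages 0 members were called (0.00616% of genes, and 4 members against 8.67% of genes at an unadjusted p under 0.05). The median was -0.11, and 21 of 36 members lay below 0, against 50.8% of genes. At 5, 8 and 14 months 0 members were called, against 0%, 0% and 0.32% of genes. At 26 months limma called 0 (0.369% of genes, and 4 members against 16.2% of genes unadjusted), and edgeR and DESeq2 each called Ier3. The 26-month count was 4 without replicate 3 of that age and 1 without replicate 4. The 3 smallest p for the later ages were those of Ier5, -0.37 (limma adjusted p = 0.404), Npas4, 1.16 (limma adjusted p = 0.5) and Rgs2, -0.28 (limma adjusted p = 0.514). Whether the later-age differences of brain and spleen differ was not tested, since the tables were normalized separately.

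The test for any difference among ages called 7 of 36 members in spleen (19.4%), against 14.6% of genes: Btg2, Fos, Ier3, Ier5, Klf2, Klf4 and Plk2. At 20 months 3 members were lower, against 4.68% of genes, and 1 was higher, against 5.99%. Klf2, which keeps naive T cells quiescent and recirculating, had 3-month samples of 316, 1245 and 1888 (lowest, median and highest) and 20-month samples of 330.1, 374 and 583, and fell (log2 change -1.31, SE 0.42, limma adjusted p = 0.0354). The groups overlapped, because the lowest 3-month sample stood at 316. Klf4, a factor of monocytes, had 3-month samples of 152, 267 and 484 and 20-month samples of 340.2, 646 and 1092, and rose (log2 change 1.20, SE 0.25, limma adjusted p = 0.00181). Its 26-month samples were 129.8, 145, 185, 188 and 293, back within the range at 3 months or below it. Btg2 (log2 change -0.44, SE 0.13, limma adjusted p = 0.0285) and Ier5 (log2 change -0.66, SE 0.16, limma adjusted p = 0.00716) also fell at 20 months. In the same libraries 6 of 6 tested B cell markers and 3 of 7 T cell markers were lower at 20 months, and 6 of 9 macrophage and neutrophil markers were higher, with medians of -0.94, -0.97 and 2.61. The summed macrophage and neutrophil level ran from 2298 to 9745 at 3 months and 5594 to 16454 at 20 months. Ms4a1 is listed at 0, and whether it was not expressed or not counted cannot be told. The part of these cell types in the members' result was not tested.

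Fos in spleen stood at 173 ± 112 (SD, n = 7) at 3 months, 104 ± 31.0 (SD, n = 8) at 8, 243 ± 97.9 (SD, n = 9) at 14, 259.7 ± 236 (SD, n = 7) at 20 and 114 ± 35.5 (SD, n = 5) at 26 months, so that the highest means were at 14 and 20 months. Plk2 was 70.2 ± 43.6 (SD, n = 7) at 3 months, 125 ± 55.5 (SD, n = 9) at 14 and 68.5 ± 19.5 (SD, n = 5) at 26. Along the slope from 5 to 26 months Arl4d (limma adjusted p = 0.0267) and Klf2 (limma adjusted p = 0.0229) fell, against 9.09% of genes, and Ier3 rose (limma adjusted p = 0.00425), against 8.69%. Ier3, a survival gene, had low counts of 0.792, 5.30 and 15.0 (lowest, median and highest) at 3 months and 11.9, 14.8, 27.2, 31.2 and 31.3 at 26 months, a log2 difference of 2.04 (limma adjusted p = 0.064). At 26 months Klf2 ran from 169 to 2461.

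**Figure D5:**
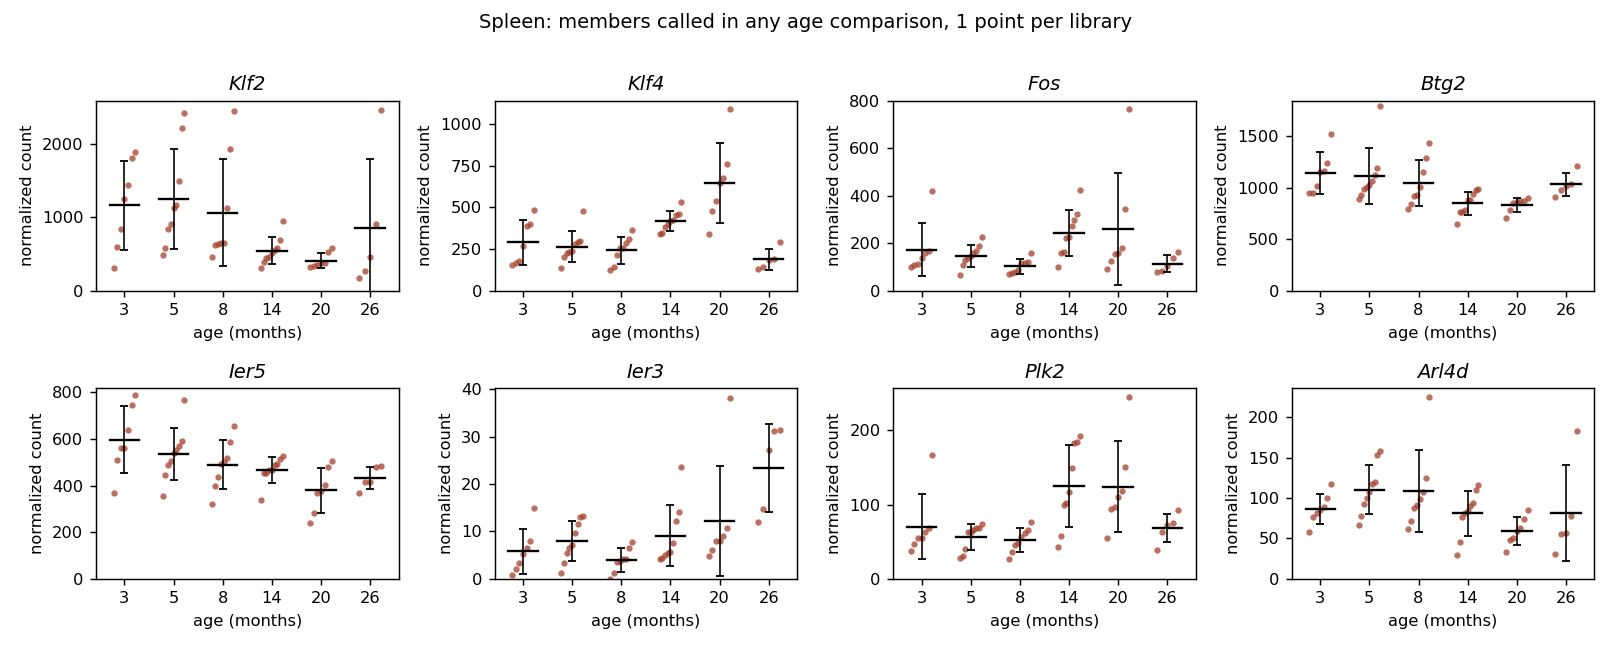
Normalized counts by age in months in spleen for the 8 members called in any age comparison, 1 point per library with group mean and SD; the axes start at 0. Klf4 has its highest mean at 20 months (340.2 to 1092) and Klf2 its lowest (330.1 to 583).

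In the mTOR study, 36 members were tested among 15512 genes in spleen. Averaged over young and old, 5 members were lower in mTOR than in WT, against 4.73% of genes, and 1 was higher, against 3.2%. Gadd45b had 529, 573 and 768 in young WT, 302, 393 and 466.3 in young mTOR, 568.1, 619 and 673 in old WT and 291, 318 and 345 in old mTOR, and fell with no overlap at either age (log2 change -0.83, SE 0.12, limma adjusted p = 0.00179). Egr2, which in lymphocytes limits activation, had 149, 185 and 233 in young WT against 110.2, 128 and 154 in young mTOR, and 159.9, 199 and 209.6 against 82.0, 94.5 and 115 in old animals (log2 change -0.74, SE 0.15, limma adjusted p = 0.00924). The young groups overlapped by 1 sample and the old groups did not overlap. Npas4, at low counts, had 8.87, 13.9 and 16.8 in young WT, 1.85, 4.24 and 8.87 in young mTOR, 12.2, 14.0 and 23.5 in old WT and 1.20, 2.93 and 5.89 in old mTOR (log2 change -1.75, SE 0.40, limma adjusted p = 0.0179).

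Nr4a3 and Trib1 were also lower in mTOR spleen, at -0.82 (limma adjusted p = 0.0198) and -0.59 (limma adjusted p = 0.0227), while Plk2 rose (log2 change 0.88, SE 0.21, limma adjusted p = 0.0258), from 57.2, 63.2 and 86.6 in young WT to 123, 129.8 and 137 in young mTOR, and from 66.1, 87.5 and 126 in old WT to 106, 154 and 257 in old mTOR. The young groups of Plk2 did not overlap and the old groups did. Its call was lost in 5 of the 12 fits that left out 1 sample (young WT replicate 1, young mTOR replicates 1 and 2, old WT replicates 2 and 3), with an adjusted p of up to 0.0616. That of Nr4a3 was lost without young mTOR replicate 3 or old WT replicate 1, and that of Trib1 without young mTOR replicate 3 or old WT replicate 2, and the other 3 calls held in all 12. Fos, Junb and Arc were not called there, with differences of 0.10 (limma adjusted p = 0.886), -0.26 (limma adjusted p = 0.149) and -0.22 (limma adjusted p = 0.761). Of the spleen cell markers 0 of 6 B cell markers were lower and 1 was higher, and 1 of 7 T cell markers was called in each direction. Leaving out replicate 3 of the young WT group gave 10 members in place of 6, and DESeq2 also called 10. Old against young called 0 members (0.0258% of genes, and 4 members against 14.1% of genes unadjusted), as did edgeR and DESeq2. The 3 smallest p were those of Ier2, -0.40 (limma adjusted p = 0.177), Fosl2, 0.54 (limma adjusted p = 0.202) and Trib1, 0.35 (limma adjusted p = 0.296). The interaction of genotype with age called 0 members and 0% of genes (unadjusted 0 members, 5.48% of genes). The 95% interval of that interaction for Gadd45b ran from -0.80 to 0.26.

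Within an age, the level of each member in the brain of an animal was set against its level in the spleen of the same animal. Over 41 animals (those of the near-identical pairs left out) and 35 members tested in both tissues, 0 passed a 2-sided permutation test of r with Benjamini-Hochberg adjustment over the 35. The largest was Klf10, with r = 0.38 (permutation p = 0.0372, adjusted 0.728) and Spearman's rho = 0.33 (permutation p = 0.0535), falling to r = 0.25 without the 2 samples farthest from the median. For Fos r was 0.29 (permutation p = 0.104, adjusted 0.762) and rho 0.20 (permutation p = 0.237), and r was 0.12 without the 2 farthest samples. Arc had r = 0.29 with and without its 2 farthest samples, and rho = 0.35 (permutation p = 0.0365, adjusted 0.624). Ier3 had r = 0.35, or 0.23 without them, and rho = 0.37 (permutation p = 0.0229, adjusted 0.624). The median r was 0.05, and 22 of the 35 members had r above 0. The means over members had r = 0.18, given as a description. Singled out after its values were seen, the animal with the highest Fos in brain at 20 months (1074) also had the highest Fos in spleen at that age (764).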

How the data were processed

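RNA sequencing libraries of brain and spleen were made from total RNA with a TruSeq kit, per the labels' protocols. Per the submitters' processing notes, reads were handled with bcl2fastq 2.20, cutadapt, HISAT2 2.1.0 against GRCm38, SAMtools, R 3.5.1 and DESeq2. How counting treated strand and overlapping genes was not given in the sources used here. The signal deposited for each gene is its number of reads, scaled by the authors with a single factor for each library: 100% of values in each table came out as whole reads within 0.01 read, per the file values.

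Values were tested as log2(value + 1) with limma 3.58.1 in R 4.3.3 (trended variance, Benjamini-Hochberg adjustment over all tested genes), on genes at 10 or more in at least 5 libraries (3 in the mTOR table), with 1 fit per table over all its groups. The script was first checked on simulated data. Alternatives were a pseudocount of 5, no filter, centring on library medians, edgeR 4.0.16 and DESeq2 1.42.0 on the recovered reads, leaving out libraries under 5000000 reads, other treatments of the near-identical libraries, fits of 2 ages alone, and leaving out replicates. Correlations used Python 3.11.15 and scipy 1.17.1, with 100000 permutations where a p is given. Promoters came from the RefSeq table for GRCm38.p6 and gene positions from GENCODE M21.

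The members, the other gene lists and the contrast of all later ages were chosen with earlier results of these data known. Full values were given for members called in brain at the later ages, at 26 months or at any age, and the 4 highest and 4 lowest later-age differences were named. In spleen the called members were named, or the 3 with the smallest p. In each other list the called genes were named, or the 2 with the smallest p.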

Additional observations from a re-analysis of the deposited data

Results flagged for a closer look

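In 15 of 102 groups of 4 to 10 samples, 1 sample stood apart from the rest by Dixon's test at 95%. Chance alone gives about 1 in 20 where groups are independent and values normally distributed. Here the values are counts without log transformation, and many groups share libraries, so that rate does not apply directly. In brain at 20 months, replicate 5 had Fos at 1074 (next 591) and Arc at 1013 (next 533). The spleen of that animal had Fos at 764 (next 343). In brain at 26 months, replicate 1 had Arl4d at 133 (next 82.8) and Ier2 at 83.2 (next 48.2). Without it, 10 members were called at 26 months in place of 6. The spleen of replicate 5 at 3 months had Fos at 419 (next 169) and Plk2 at 166 (next 68.1).

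The other single high values in brain were Fos at 8 months in replicate 5 (949.9, next 631), Btg2 at 5 months in replicate 2 (314, next 214) and Junb at 5 months in replicate 8 (232, next 145). In spleen they were Arl4d at 8 months in replicate 3 (226, next 125), Btg2 at 5 months in replicate 4 (1788, next 1188), Klf4 at 5 months in replicate 8 (479, next 297) and Ier3 at 20 months in replicate 2 (38.3, next 10.7). Ier5 in spleen at 14 months was lowest in replicate 9 (337, next 453).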

How the results depend on the processing

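In the ageing tables replicates were left out 1 at a time at 3 and 26 months for the brain counts at those ages, and at 26 months alone for the any-age, slope and spleen counts. Samples of the ages between were never left out. For brain members lower at all later ages (3), the count was 0 with no filter, 0 without libraries under 5000000 reads, 1 with median centring, 1 without the near-identical libraries (an alternative chosen after seeing the data) and 5 in DESeq2, and 0 to 5 when 1 replicate was left out. At 26 months (6) it ran from 2 to 10 when 1 replicate was left out, and from 5 to 8 over the other alternatives. For any age (0) it was 2 in edgeR, 6 in DESeq2, 1 with near-identical libraries counted separately, and 0 to 4 without 1 replicate. At 20 months (0) it was 1 in edgeR, 3 in DESeq2, 1 without libraries under 5000000 reads, 1 with near-identical libraries counted separately and 3 in the fit of 20 and 3 months alone. In spleen at 26 months (0) it was 1 with a pseudocount of 5, 1 in edgeR, 1 in DESeq2, 2 without libraries under 5000000 reads, and 0 to 4 without 1 replicate. For mTOR against WT (6) it was 10 in DESeq2 and 4 to 10 without 1 replicate. The causes of these moves were not tested. The mTOR table had no library under 5000000 reads to leave out. No paired analysis was possible because the groups compared within a table come from different animals. Replicate numbers pair animals only between brain and spleen (the same animal in 41 of 41), and no contrast was tested across these separately normalized tables. With 5 animals at 26 months and 3 per group in the mTOR table, the number of samples limits the precision, and low-count members such as Atf3 in brain and Ier3 and Npas4 in spleen rest on few reads.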
